A study of Mus musculus with 12 samples.

Results

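The genes of the leukaemia inhibitory factor (LIF) receptor pathway measured here are Lifr and Il6st, Jak1 and Jak2, Stat3, Socs3 and Socs2, and Pim1 and Pim3. These 9 genes were chosen by symbol, for their place in the pathway, with earlier results of these data known. Out of 23136 named loci, each matched 1 locus of its own. All 9 passed the filter on low values. Poly(A)-selected RNA was sequenced from mouse cells of strain C57 Bl/6J, 12 libraries in all and 3 per group. Embryonic stem cells (ESC) were wild type, lacked Sirt1 (Sirt1KO), or lacked Sirt1 and had Otx2 knocked down as well (Sirt1KO Otx2KD, also called the Otx2KD cells). All 3 kinds of ESC grew without serum in LIF plus inhibitors of GSK3 (CHIR99021, 3 uM) and of MEK (PD0325901, 1 uM). The 4th group, wild-type epiblast-like cells (EpiLC), had been induced for 48 h by Activin A at 20 ng/ml, Fgf2 at 12 ng/ml and 1% of the serum replacement KOSR. LIF is not named for the EpiLC medium, so the change of medium and the change of cell state cannot be told apart. The labels give neither how Sirt1 was deleted and Otx2 knocked down nor how many clones were used.

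LIF binds the LIF receptor, which pairs with the shared signalling subunit gp130, the product of Il6st. JAK kinases bound to the receptor tails then phosphorylate STAT3, which dimerises, enters the nucleus and switches on target genes. Among the targets is Socs3, whose product binds gp130 and the JAKs and shuts the signal down. In mouse ESC this pathway supports self-renewal in the naive state, and a parallel branch through the phosphatase SHP2 feeds the ERK kinases.

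Socs3 and Stat3 were the genes of the 9 that fell most in EpiLC, so the sequences before their start sites are shown. STAT dimers are known to bind TTCNNNGAA, a motif that reads the same on both strands. The 250 bases before the start are given 5′ to 3′ on the gene's strand, from RefSeq on GRCm38.p6, with the motif in capitals. Both genes lie on the minus strand, at chr11:117969367-117969616 for Socs3 and chr11:100939541-100939790 for Stat3.
Socs3: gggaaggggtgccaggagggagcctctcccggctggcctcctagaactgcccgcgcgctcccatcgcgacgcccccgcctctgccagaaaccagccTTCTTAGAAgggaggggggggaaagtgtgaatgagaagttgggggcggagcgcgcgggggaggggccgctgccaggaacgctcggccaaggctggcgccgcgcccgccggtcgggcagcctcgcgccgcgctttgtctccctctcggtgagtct
Stat3: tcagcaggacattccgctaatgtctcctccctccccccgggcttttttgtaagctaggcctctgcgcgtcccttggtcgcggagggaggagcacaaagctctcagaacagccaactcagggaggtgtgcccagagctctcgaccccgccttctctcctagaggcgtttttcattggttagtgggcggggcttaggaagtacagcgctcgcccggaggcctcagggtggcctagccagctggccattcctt
The Socs3 window held 1 match, which begins 154 bases before the start, and the Stat3 window held none. Of all 32851 RefSeq promoter windows of this length, 7.02% held at least 1 match. Promoter entries matched 8 of the 9 genes, and Socs3 was the only one of these 8 with a match in the 250 bases. A match describes letters and not a measured binding site.

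Expression is in FPKM, fragments per kilobase of transcript scaled to library size, which can be compared between genes because it is per length. No fragment counts are given. From the steps between low values, depth relative to wild-type ESC replicate 1 ran from 0.767 (Sirt1KO Otx2KD replicate 2) to 1.33 (EpiLC replicate 2). Levels are given as means ± SD over n = 3 libraries, and values of single libraries stand in the order of replicates 1, 2 and 3. Fold changes are ± SE on the log2(FPKM + 1) scale, which understates the change of genes with low FPKM. A gene was called where limma's Benjamini-Hochberg adjusted p over 12320 tested loci was under 0.05. No label says that replicates are separate cultures. The p-values therefore cover only how far these samples spread, and that spread may be technical. In bulk RNA, fewer cells of a type and less RNA per cell cannot be told apart.

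Of the targeted genes, Sirt1 had 25.8 ± 0.412 FPKM in wild-type ESC against 15.5 ± 0.196 (Sirt1KO) and 15.6 ± 0.492 (Sirt1KO Otx2KD), and the deleted part of the gene is not given. Otx2 had 7.38 ± 0.458 FPKM in wild-type ESC against 100.2 ± 3.45 (EpiLC), 27.0 ± 6.36 (Sirt1KO) and 6.07 ± 0.401 (Sirt1KO Otx2KD). Sirt1KO replicate 1 stood apart for Otx2, at 34.2 FPKM against 24.6 and 22.2. The summed FPKM of 6 markers of naive cells was 1299.9 to 1363 in wild-type ESC, 333 to 342 in EpiLC, 913 to 1061 in Sirt1KO and 1397 to 1426 in Sirt1KO Otx2KD. Sums over 4 EpiLC markers were 25.0 to 28.3, 610.3 to 622, 131 to 194 and 32.6 to 35.2 in the same order. The 8 fibroblast markers summed to 105 to 126, 60.9 to 62.8, 10.9 to 14.5 and 234 to 236, with none of them at 0 throughout. Primitive endoderm markers, 5 in all, summed to at most 2.56 in any library.

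**Figure D1:**
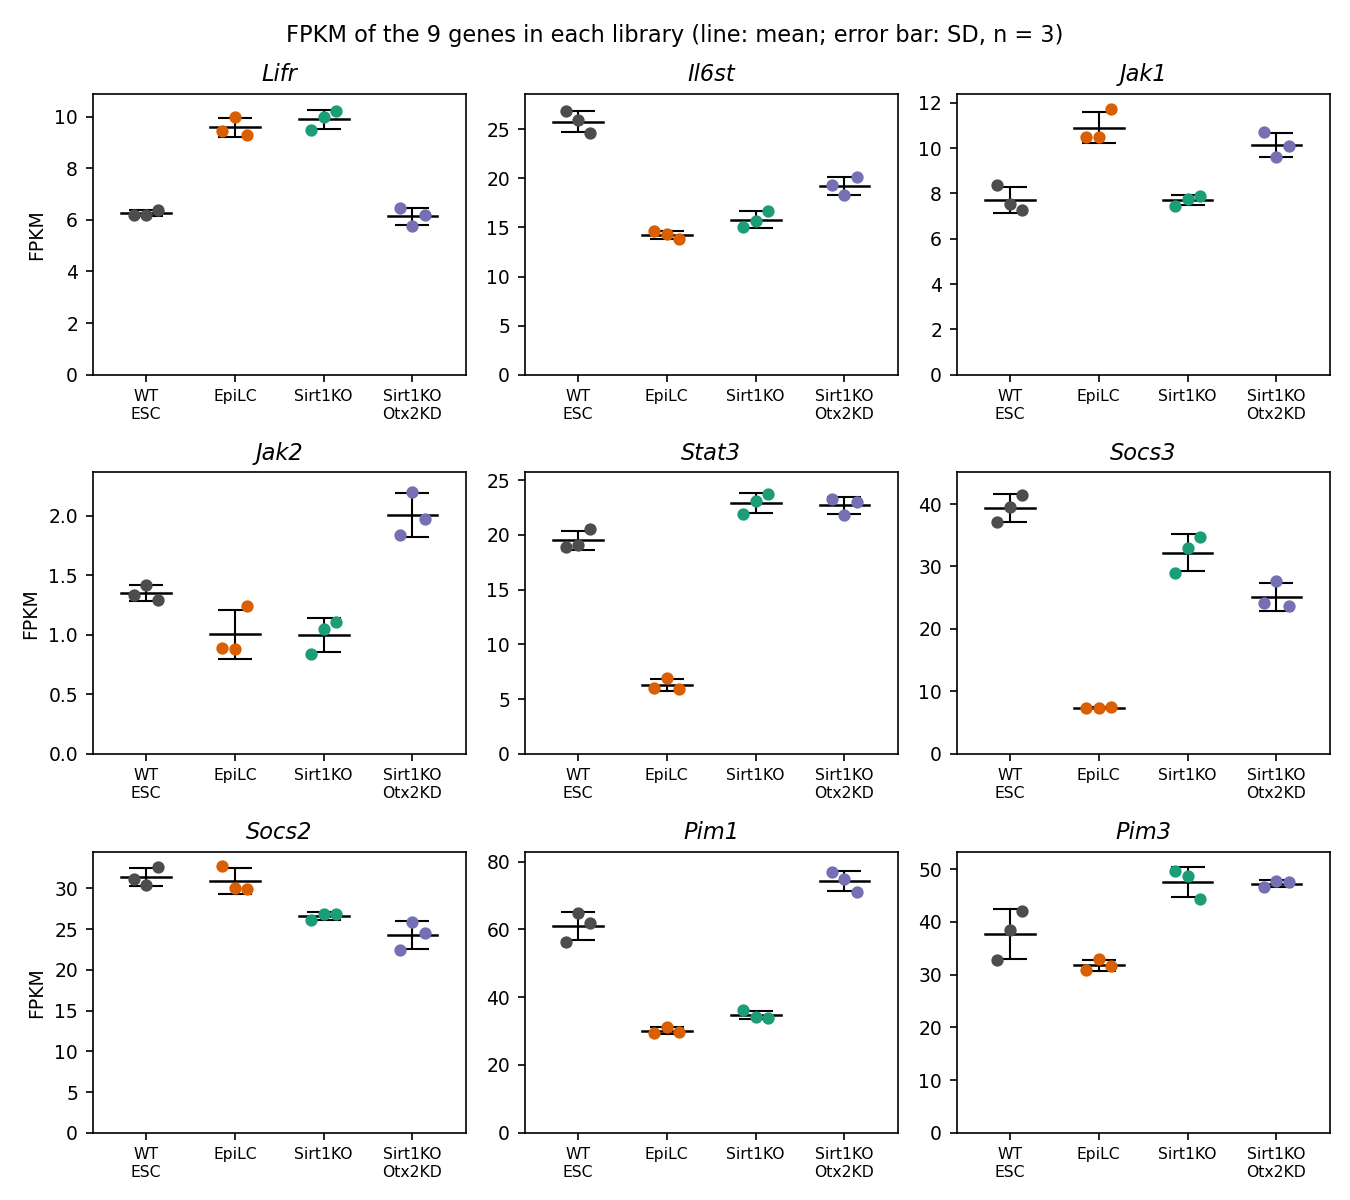
FPKM (vertical axes, from 0) of the 9 genes in each library of the 4 groups. Points are libraries, the long line is the mean and the error bar is the SD; Stat3 and Socs3 are lowest in EpiLC, and Lifr and Il6st move in opposite directions in EpiLC and Sirt1KO.

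In EpiLC, Socs3, Stat3, Pim1 and Il6st were well below wild-type ESC, and Lifr and Jak1 were higher. Socs3 fell from 39.4 ± 2.20 to 7.37 ± 0.0816 FPKM and Stat3 from 19.5 ± 0.905 to 6.31 ± 0.566. Jak2 and Pim3 fell by less, and Socs2 did not pass the test. In all, 2 of the 9 genes were called higher and 6 lower, against 35.8% of all tested loci called higher and 38.8% called lower. The median log2 change of the 9 was -0.24, beside -0.02 over all tested loci.

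In Sirt1KO the receptor genes were again higher for Lifr and lower for Il6st, but Stat3 was not lower than in wild-type ESC. Stat3 and Pim3 rose slightly, Pim1 fell to 34.7 ± 1.26 FPKM, and Jak1 did not pass the test. Of the 9 genes, 3 were called higher and 5 lower, where 32.4% and 32.7% of all tested loci were called higher and lower. Their median log2 change was -0.23, beside 0.01 over all tested loci. With chromosome medians removed, as described for Stat3 and Socs3 below, the counts were 4 higher and 3 lower, as Socs3 turned from lower to higher and Jak2 was no longer called. The middle value of the 9 genes was then 0.00, that of Jak1, in place of -0.23.

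With Otx2 knocked down in Sirt1KO, Lifr fell from 9.89 ± 0.368 to 6.14 ± 0.338 FPKM, beside 6.25 ± 0.121 in wild-type ESC, and Pim1 rose to 74.3 ± 3.05, above wild-type ESC. Il6st, Jak1, Jak2 and Pim1 were called higher than in Sirt1KO, and Lifr and Socs3 lower. These 4 and 2 of the 9 genes stand beside 31.1% and 31.5% of all tested loci, and the median log2 change was -0.01 for both sets. Against wild-type ESC, Sirt1KO Otx2KD had 5 of the 9 genes called higher and 3 lower (27.1% and 26.8% of all tested loci), with a median of 0.21 beside 0.00. EpiLC against Sirt1KO gave 2 higher and 5 lower (34.0% and 35.1% of all tested loci), with a median of -0.14 beside -0.01. Several of these comparisons share a group, so their values are given side by side and not as support for each other.

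**Figure D2:**
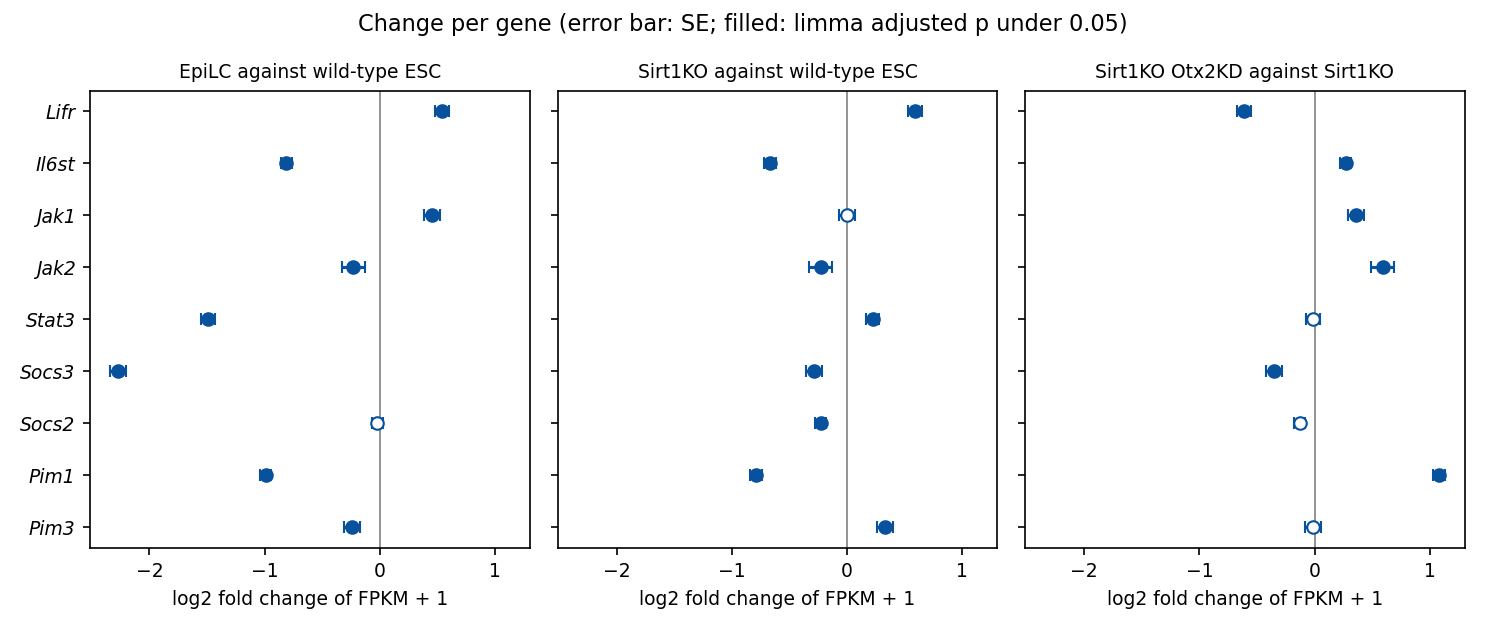
Change of each gene in 3 comparisons, on the horizontal axis as the log2 fold change of FPKM + 1 with its SE; filled points passed limma's adjusted p under 0.05. Socs3 (-2.27) and Stat3 (-1.49) have the lowest values, both in EpiLC, and Pim1 has the highest (1.08), in Sirt1KO Otx2KD against Sirt1KO.

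Lifr encodes the subunit that binds LIF (XLOC_007973, chromosome 15, 7079549 to 7147489, mm9). It stood at 6.18, 6.19 and 6.39 FPKM in the wild-type ESC libraries, 9.43, 10.0 and 9.30 in EpiLC and 9.49, 9.97 and 10.2 in Sirt1KO, with 6.44, 5.77 and 6.20 in Sirt1KO Otx2KD. All EpiLC and Sirt1KO libraries lay above all libraries of the other groups. Against wild-type ESC, Lifr rose by 0.54 ± 0.06 on the log2 scale in EpiLC (limma adjusted p = 1.09e-06) and by 0.59 ± 0.06 in Sirt1KO (adjusted p = 8.08e-07). It fell in Sirt1KO Otx2KD against Sirt1KO (-0.61 ± 0.06, adjusted p = 7.59e-07). Groups at similar levels overlapped: Sirt1KO Otx2KD against wild-type ESC gave -0.02 (adjusted p = 0.745), and EpiLC against Sirt1KO gave -0.04 (adjusted p = 0.534).

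Il6st encodes gp130, the subunit shared by the receptors of the IL-6 family (XLOC_006250, chromosome 13, 113254277 to 113299526). Its FPKM was 26.8, 25.9 and 24.6 in wild-type ESC, 14.6, 14.3 and 13.8 in EpiLC and 15.0, 15.6 and 16.7 in Sirt1KO, with 19.3, 18.3 and 20.1 in Sirt1KO Otx2KD. The order was EpiLC, Sirt1KO, Sirt1KO Otx2KD and wild-type ESC, with no overlap between any groups. Il6st fell in EpiLC (-0.81 ± 0.05, limma adjusted p = 6.99e-09) and in Sirt1KO (-0.67 ± 0.05, adjusted p = 8.97e-08). In Sirt1KO Otx2KD it rose over Sirt1KO (0.27 ± 0.05, adjusted p = 0.000570) but stayed called lower than wild-type ESC (-0.40 ± 0.05, adjusted p = 2.65e-05). The small step between EpiLC and Sirt1KO (-0.14 ± 0.05, adjusted p = 0.0349) lost its call under 10 of 14 alternatives, with an adjusted p of 0.152 with chromosome medians removed.

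The receptor subunits moved in opposite directions in 3 comparisons. Il6st was 4.12 ± 0.256 times as high as Lifr in wild-type ESC and 3.14 ± 0.127 times in Sirt1KO Otx2KD, per length. In EpiLC the ratio was 1.49 ± 0.0555 and in Sirt1KO 1.59 ± 0.0365. This ratio was chosen after the values were seen and carries no test.

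**Figure D3:**
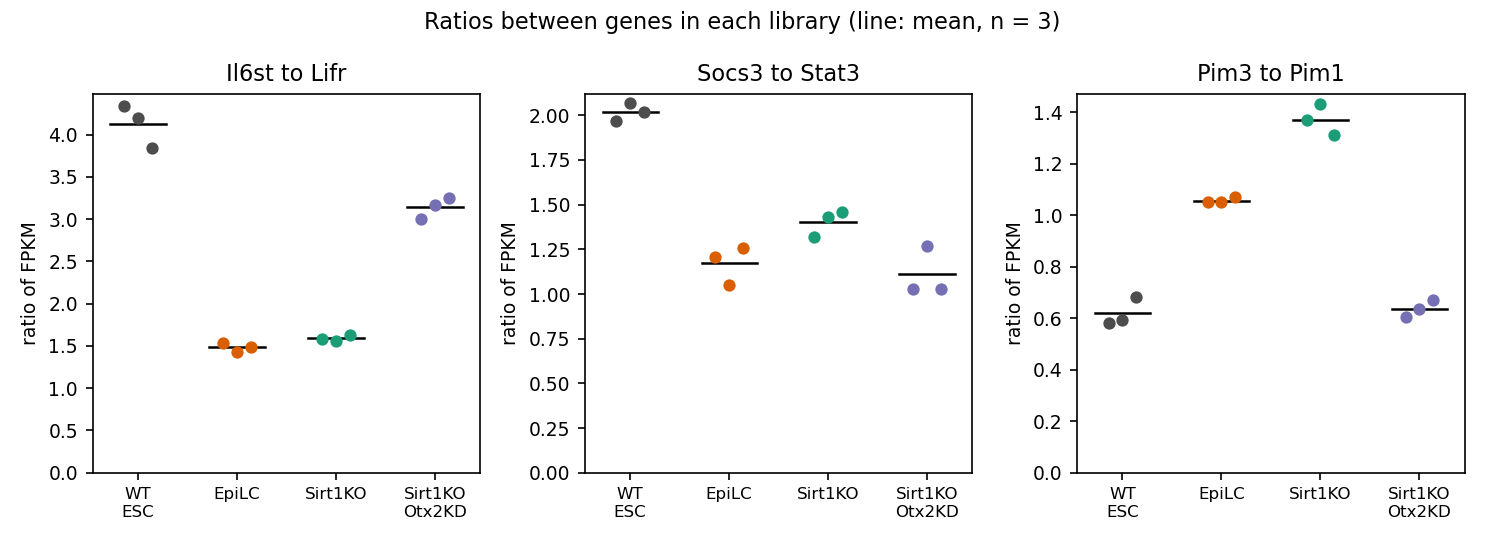
Ratios of FPKM between genes in each library (vertical axes, from 0), with the mean of 3 libraries as a line. The Il6st to Lifr ratio is 4.12 in wild-type ESC and near 1.5 in EpiLC and Sirt1KO, and the Pim3 to Pim1 ratio is above 1 only in EpiLC and Sirt1KO.

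Jak1 is the kinase through which gp130 receptors mainly signal (XLOC_017415, chromosome 4, 100741607 to 100937887). It stood at 8.36, 7.52 and 7.26 FPKM in wild-type ESC libraries, 10.5, 10.5 and 11.7 in EpiLC and 7.44, 7.77 and 7.89 in Sirt1KO, with 10.7, 9.61 and 10.1 in Sirt1KO Otx2KD. EpiLC and Sirt1KO Otx2KD were the high groups and overlapped each other, and the other groups overlapped at the low level. Jak1 rose in EpiLC by 0.45 ± 0.07 (limma adjusted p = 2.46e-05) and in Sirt1KO Otx2KD against Sirt1KO by 0.36 ± 0.07 (adjusted p = 0.000313). The difference between Sirt1KO and wild-type ESC was 0.00 ± 0.07 (adjusted p = 1.00).

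Jak2, a second kinase of cytokine receptors (XLOC_012138, chromosome 19, 29326317 to 29387570), had the lowest level of the 9 genes. Its FPKM was 1.33, 1.42 and 1.29 in wild-type ESC, 0.891, 0.876 and 1.24 in EpiLC and 0.835, 1.05 and 1.11 in Sirt1KO, with 1.84, 2.20 and 1.97 in Sirt1KO Otx2KD. Sirt1KO Otx2KD lay above all other libraries, wild-type ESC lay next, and EpiLC and Sirt1KO overlapped at the bottom. Jak2 rose there against Sirt1KO (0.59 ± 0.10, limma adjusted p = 0.000119) and against wild-type ESC (0.35 ± 0.10, adjusted p = 0.00663). Its lower values in EpiLC (-0.23 ± 0.10, adjusted p = 0.0406) and Sirt1KO (-0.23 ± 0.10, adjusted p = 0.0453) passed the threshold narrowly. Adjusted p reached 0.136 without EpiLC replicate 2 in the first, and 0.159 without Sirt1KO replicate 1 in the second.

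Stat3 is the transcription factor that carries the LIF signal to the nucleus (XLOC_004355, chromosome 11, 100748123 to 100800825). It stood at 18.9, 19.1 and 20.5 FPKM in wild-type ESC libraries, 6.03, 6.96 and 5.93 in EpiLC and 21.9, 23.1 and 23.7 in Sirt1KO, with 23.3, 21.8 and 23.0 in Sirt1KO Otx2KD. EpiLC was far below all other libraries, and the Sirt1KO groups, which overlapped, lay just above wild-type ESC. Stat3 fell in EpiLC against wild-type ESC (-1.49 ± 0.06, limma adjusted p = 4.64e-11) and stood lower there than in Sirt1KO (-1.71 ± 0.06, adjusted p = 2.24e-11). It rose by 0.22 ± 0.06 in Sirt1KO (adjusted p = 0.00559) and by 0.21 ± 0.06 in Sirt1KO Otx2KD (adjusted p = 0.0101), both against wild-type ESC. Sirt1KO Otx2KD against Sirt1KO gave -0.01 ± 0.06 (adjusted p = 0.871).

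Socs3, the feedback inhibitor of gp130 signalling (XLOC_004510, chromosome 11, 117827400 to 117830680), made the largest change of the 9 genes, in EpiLC. Its FPKM was 37.1, 39.6 and 41.5 in wild-type ESC, 7.32, 7.32 and 7.46 in EpiLC and 28.9, 33.0 and 34.7 in Sirt1KO, with 24.1, 27.6 and 23.6 in Sirt1KO Otx2KD. The groups fell in the order wild-type ESC, Sirt1KO, Sirt1KO Otx2KD and EpiLC without overlap. Socs3 fell by 2.27 ± 0.07 on the log2 scale in EpiLC (limma adjusted p = 3.24e-12). Smaller decreases were called in Sirt1KO (-0.29 ± 0.07, adjusted p = 0.00284) and in Sirt1KO Otx2KD against Sirt1KO (-0.35 ± 0.07, adjusted p = 0.000741). Sirt1KO Otx2KD against wild-type ESC gave -0.63 ± 0.07 (adjusted p = 5.13e-06).

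Stat3 and Socs3 lie on chromosome 11, whose genes as a whole were lower than wild-type ESC in the other 3 groups. Over the 1039 tested loci of the chromosome, the median log2 change was -0.46 in EpiLC, -0.49 in Sirt1KO and -0.39 in the Otx2KD cells against wild-type ESC. Between Sirt1KO Otx2KD and Sirt1KO it was 0.07. Chromosome and group cannot be told apart in comparisons with wild-type ESC, and the cause of the shift was not tested. A fit with the median of each chromosome removed from each library was used to read both genes against their chromosome.

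Within chromosome 11, Stat3 was low in EpiLC and high in Sirt1KO. Only 5.97% of the chromosome's loci had a lower change than Stat3 in EpiLC, whereas 91.8% had a lower change in Sirt1KO. With chromosome medians removed, Stat3 changed by -1.02 ± 0.06 in EpiLC (limma adjusted p = 2.07e-09) and by 0.71 ± 0.06 in Sirt1KO (adjusted p = 1.86e-07). The Sirt1KO value was 0.22 before that removal. Of the 10 tested loci nearest to Stat3, which include Stat5a and Stat5b, 9 had a change below 0 in Sirt1KO, with a median of -0.25.

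Socs3 kept its fall in EpiLC on this scale but not its fall in Sirt1KO. In EpiLC, 2.02% of the loci of chromosome 11 had a lower change than Socs3, and its value with medians removed was -1.80 ± 0.07 (limma adjusted p = 2.34e-11). In Sirt1KO the direction turned, to 0.20 ± 0.07 (adjusted p = 0.0204), and 67.9% of the chromosome's loci lay below Socs3. Among its 10 nearest tested loci, 8 had a change below 0 in Sirt1KO, with a median of -0.42. The decrease in Sirt1KO Otx2KD against Sirt1KO was -0.43 ± 0.07 with medians removed (adjusted p = 0.000103), and that against wild-type ESC was -0.23 ± 0.07 (adjusted p = 0.0142).

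**Figure D4:**
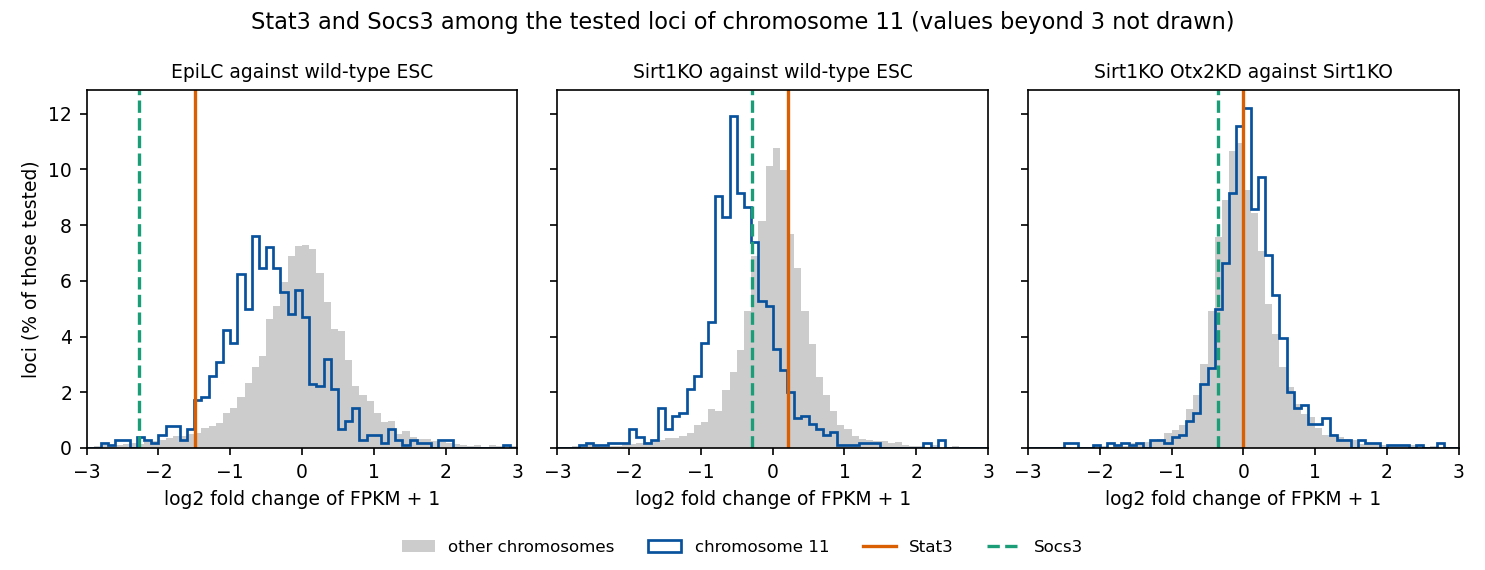
Share of tested loci (vertical axis, %) by log2 fold change of FPKM + 1 (horizontal axis) for chromosome 11 (blue outline) and all other chromosomes (grey), in 3 comparisons. Orange and green lines mark Stat3 and Socs3: the chromosome's median is -0.49 in Sirt1KO, where Stat3 lies at 0.22 and Socs3 at -0.29.

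Since both genes share the chromosome, their ratio within a library was compared as well. Socs3 was 2.02 ± 0.0522 times as high as Stat3 in wild-type ESC, 1.17 ± 0.109 times in EpiLC, 1.40 ± 0.0725 times in Sirt1KO and 1.11 ± 0.138 times in the Otx2KD cells. Wild-type ESC libraries lay above all others. The log2 ratio differed from wild-type ESC by -0.79 ± 0.08 in EpiLC, -0.53 ± 0.05 in Sirt1KO and -0.87 ± 0.10 in the Otx2KD cells. Two-sided exact permutation tests gave p = 0.10 in each, the smallest that 3 against 3 libraries allow, so these differences cannot reach 0.05 by this test. The ratio shows unequal change and not which gene moved.

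Socs2 encodes a related inhibitor best known for acting on growth hormone signalling (XLOC_002457, chromosome 10, 94874123 to 94879491). It stood at 31.2, 30.4 and 32.6 FPKM in wild-type ESC libraries, 32.7, 30.1 and 29.9 in EpiLC and 26.1, 26.9 and 26.9 in Sirt1KO, with 22.5, 25.9 and 24.5 in Sirt1KO Otx2KD. Wild-type ESC and EpiLC overlapped, and both lay above the Sirt1KO groups. EpiLC differed from wild-type ESC by -0.02 ± 0.05 (limma adjusted p = 0.695), a value with the other sign (0.04) under quantile normalization. Socs2 fell in Sirt1KO (-0.23 ± 0.05, adjusted p = 0.00192) and in Sirt1KO Otx2KD (-0.36 ± 0.05, adjusted p = 7.42e-05), both against wild-type ESC. Sirt1KO Otx2KD against Sirt1KO gave -0.13 ± 0.05 (adjusted p = 0.0506), which passed the test without Sirt1KO Otx2KD replicate 2 (adjusted p = 0.0174) and under quantile normalization (adjusted p = 0.0256).

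Pim1 encodes a serine/threonine kinase that cytokine signalling through STAT factors induces (XLOC_010055, chromosome 17, 29627611 to 29633056). Its FPKM was 56.4, 64.8 and 61.8 in wild-type ESC, 29.4, 31.3 and 29.6 in EpiLC and 36.2, 34.1 and 33.9 in Sirt1KO, with 77.0, 75.0 and 71.0 in Sirt1KO Otx2KD. No groups overlapped, and Sirt1KO Otx2KD was the highest. Pim1 fell in EpiLC (-0.99 ± 0.05, limma adjusted p = 6.44e-10) and in Sirt1KO (-0.79 ± 0.05, adjusted p = 1.23e-08). With Otx2 knocked down it rose over Sirt1KO by 1.08 ± 0.05 (adjusted p = 1.08e-09) and over wild-type ESC by 0.28 ± 0.05 (adjusted p = 0.000442). Of the 619 tested loci of chromosome 17, 98.2% had a lower change than Pim1 in Sirt1KO Otx2KD against Sirt1KO.

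Pim3, a kinase of the same family (XLOC_008231, chromosome 15, 88692623 to 88696156), followed another course. It stood at 32.7, 38.4 and 42.1 FPKM in wild-type ESC libraries, 30.8, 32.9 and 31.7 in EpiLC and 49.6, 48.7 and 44.4 in Sirt1KO, with 46.6, 47.7 and 47.6 in Sirt1KO Otx2KD. The Sirt1KO groups were highest and overlapped, and EpiLC overlapped wild-type ESC replicate 1. Pim3 rose in Sirt1KO (0.33 ± 0.07, limma adjusted p = 0.00107) and in Sirt1KO Otx2KD (0.32 ± 0.07, adjusted p = 0.00170) against wild-type ESC. Its decrease in EpiLC was -0.24 ± 0.07 (adjusted p = 0.00895), and without wild-type ESC replicate 3 it was -0.15 (adjusted p = 0.0506). Sirt1KO Otx2KD against Sirt1KO gave -0.01 ± 0.07 (adjusted p = 0.948).

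The ratio of Pim3 to Pim1 was 0.619 ± 0.0549 in wild-type ESC, 1.06 ± 0.0130 in EpiLC, 1.37 ± 0.0604 in Sirt1KO and 0.638 ± 0.0330 in the Otx2KD cells. All EpiLC and Sirt1KO libraries lay above all libraries of the other groups. On the log2 scale the ratio differed by 1.15 ± 0.08 between Sirt1KO and wild-type ESC, and by -1.10 ± 0.06 between Sirt1KO Otx2KD and Sirt1KO. Both had a two-sided exact permutation p = 0.10, again the smallest possible. Sirt1KO Otx2KD and wild-type ESC differed by 0.05 ± 0.08 (exact permutation p = 0.60).

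Marker lists of other states and cell types moved with some of these genes. The fibroblast markers, collagens Col1a1, Col1a2 and Col3a1 among them, fell in Sirt1KO and rose in Sirt1KO Otx2KD against Sirt1KO for all 7 that were tested, as did all 6 naive markers. Il6st, Jak2 and Pim1 were called in the same directions in these comparisons, although the fall of Jak2 in Sirt1KO was narrow. The part of fibroblast-like cells or of the naive state in these changes was not tested. Lifr, Stat3 and Pim3 rose in Sirt1KO, where both lists fell. Lifr and Socs3 were called lower in Sirt1KO Otx2KD against Sirt1KO, where both lists rose. In EpiLC all 6 naive markers fell, as did Stat3 and Socs3, and the fibroblast markers were mixed. Of these, 5 of the 7 tested fell, Thy1 rose (1.11 ± 0.10, limma adjusted p = 1.50e-07) and Dcn was not called (0.12 ± 0.13, adjusted p = 0.400).

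The other genes of the pathway came from lists fixed for this comparison with earlier results known. Among ligands and receptors, 9 of 12 genes were tested, and Il6, Il11 and Clcf1 were under the filter. In EpiLC 2 of the 9 were called higher and 6 lower (median log2 change -0.72), where 35.8% and 38.8% of all tested loci were called and their median was -0.02. In Sirt1KO 2 were higher and 5 lower (median -0.43), beside 32.4%, 32.7% and 0.01 over all tested loci. In Sirt1KO Otx2KD against Sirt1KO 5 were higher and 0 lower (median 0.39), beside 31.1%, 31.5% and -0.01. All 9 values lay above 0 there, so none was lower at an unadjusted p under 0.05 either.

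Lif itself was measured at 6.45 ± 0.141 FPKM in wild-type ESC, 2.69 ± 0.374 in EpiLC, 4.52 ± 0.184 in Sirt1KO and 7.66 ± 0.542 in the Otx2KD cells. It fell in EpiLC (-1.02 ± 0.08, limma adjusted p = 4.64e-08) and in Sirt1KO (-0.43 ± 0.08, adjusted p = 0.000313). Lif lies on chromosome 11, and with chromosome medians removed the EpiLC value was -0.54, and the Sirt1KO value was 0.06 and not called (adjusted p = 0.562). It rose in Sirt1KO Otx2KD against Sirt1KO (0.65 ± 0.08, adjusted p = 9.94e-06). The recombinant LIF in the ESC medium is not measured by RNA.

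Osm, a ligand of the same family on the same chromosome, stood at 19.7 ± 1.57 FPKM in wild-type ESC, 0.733 ± 0.354 in EpiLC, 10.2 ± 0.395 in Sirt1KO and 13.7 ± 1.14 in the Otx2KD cells. Its fall in EpiLC was -3.59 ± 0.12 (limma adjusted p = 5.79e-12). In Sirt1KO, Osm changed by -0.88 against wild-type ESC, and by -0.39 with chromosome medians removed (adjusted p = 0.00762). The rise in Sirt1KO Otx2KD against Sirt1KO (0.39 ± 0.12, adjusted p = 0.00985) was not called with a pseudocount of 0.1 (0.42, adjusted p = 0.125) or with no filter (0.39, adjusted p = 0.0539). Ctf1, cardiotrophin, fell from 5.67 ± 0.827 FPKM to 3.03 ± 0.329 in EpiLC and 2.86 ± 0.563 in Sirt1KO, and was at 4.61 ± 0.209 in Sirt1KO Otx2KD. Cntf, ciliary neurotrophic factor, shares its locus in the files with U05342 and Zfp91. That locus stood between 21.0 ± 0.468 and 26.3 ± 0.749 FPKM, which cannot be assigned to 1 of the 3 genes.

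The other receptors diverged. Osmr, which pairs with gp130 to receive oncostatin M, was at 1.88 ± 0.0813 FPKM in wild-type ESC, 0.591 ± 0.0714 in EpiLC, 0.145 ± 0.0498 in Sirt1KO and 1.70 ± 0.0361 in the Otx2KD cells. Osmr neighbours Lifr on chromosome 15 but fell in Sirt1KO (-1.33 ± 0.08, limma adjusted p = 4.98e-09), where Lifr rose. Its rise in Sirt1KO Otx2KD (1.24 ± 0.08, adjusted p = 1.66e-08) went with that of the fibroblast markers, and their part in it was not tested. Il6ra, the IL-6 binding subunit, fell from 2.99 ± 0.351 FPKM to 0.150 ± 0.0903 in EpiLC and 0.987 ± 0.234 in Sirt1KO. Cntfr, the CNTF binding subunit, rose from 0.633 ± 0.240 to 2.55 ± 0.500 FPKM in EpiLC. Il11ra1, the IL-11 binding subunit, rose from 0.592 ± 0.0997 to 1.33 ± 0.594 FPKM in EpiLC (0.52 on the log2 scale, and 0.32 without EpiLC replicate 3).

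Of 8 other JAK and STAT genes, 1 was called higher and 4 lower in EpiLC (median -0.32), beside 35.8% and 38.8% of all tested loci. In Sirt1KO 0 were higher and 3 lower (median -0.19), with all 8 values below 0. Of these, Stat5a (-0.20) and Stat5b (-0.28) were not called and lie on chromosome 11, whose median in Sirt1KO was -0.49. Both lay above that median. The share of lower genes in Sirt1KO was near the 32.7% of all tested loci, while 32.4% of them were called higher. In Sirt1KO Otx2KD against Sirt1KO 4 were higher and 2 lower (median 0.17), beside 31.1% and 31.5%. Jak3, a kinase best known from lymphocytes, shares its locus in the files with Insl3, which encodes a peptide hormone, so the values cannot be assigned to either gene. This locus was at 31.2 ± 4.54 FPKM in wild-type ESC, 2.39 ± 0.418 in EpiLC (-3.24 ± 0.12, limma adjusted p = 1.81e-10), 19.8 ± 2.89 in Sirt1KO and 32.8 ± 2.97 in the Otx2KD cells. Its Sirt1KO change was -0.63, and -1.09 with chromosome medians removed. Stat4 fell in Sirt1KO from 4.42 ± 0.224 to 1.92 ± 0.135 FPKM, and was at 4.59 ± 0.380 in EpiLC and 2.97 ± 0.226 in the Otx2KD cells. Stat5a, which lies beside Stat3, fell from 1.32 ± 0.0785 to 0.408 ± 0.100 FPKM in EpiLC (-0.72, and -0.24 with chromosome medians removed).

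The 13 other inhibitors, namely SOCS and PIAS proteins and phosphatases, gave 4 higher and 8 lower in EpiLC (median -0.19), beside 35.8% and 38.8% of all tested loci. In Sirt1KO 2 were higher and 7 lower (median -0.25), beside 32.4% and 32.7%. In Sirt1KO Otx2KD against Sirt1KO 7 were higher and 2 lower (median 0.20), beside 31.1% and 31.5%. Ptpn6, the phosphatase SHP1, fell from 43.1 ± 2.09 FPKM to 16.4 ± 0.284 in EpiLC (-1.34 ± 0.05, limma adjusted p = 6.83e-12) and 20.9 ± 0.652 in Sirt1KO, and was at 34.5 ± 0.981 in Sirt1KO Otx2KD. Socs7 on chromosome 11 went from 10.2 ± 0.312 FPKM to 5.91 ± 0.373 in EpiLC and 5.98 ± 0.226 in Sirt1KO, and was at 9.08 ± 0.532 in Sirt1KO Otx2KD. Its changes of -0.70 and -0.68 were -0.22 and -0.20 with chromosome medians removed. Pias3, an inhibitor of STAT3 itself, rose in EpiLC, from 11.9 ± 0.103 to 18.8 ± 0.642 FPKM, and fell in Sirt1KO, to 9.87 ± 0.364. Pias4 fell in both, from 35.5 ± 0.937 FPKM to 29.3 ± 0.316 and 25.1 ± 2.30. Socs4, picked after its values were seen, was high in EpiLC and Sirt1KO. It was at 6.81 ± 0.323 FPKM in wild-type ESC, 9.62 ± 1.01 in EpiLC, 9.58 ± 0.510 in Sirt1KO and 5.84 ± 0.559 in the Otx2KD cells.

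In the SHP2 branch, Ptpn11, which encodes SHP2, and its docking protein Gab1 were called higher in EpiLC and Sirt1KO, and the adaptor Grb2 lower, with Sos1 not called in either. Gab1 rose from 58.7 ± 0.293 FPKM to 97.6 ± 0.948 in EpiLC (0.72 ± 0.03, limma adjusted p = 4.74e-11) and 110.1 ± 2.38 in Sirt1KO (0.90 ± 0.03, adjusted p = 1.56e-11). Ptpn11 was at 19.0 ± 0.249, 26.0 ± 0.359 and 24.4 ± 1.07 FPKM in the same order. Grb2, on chromosome 11, was at 47.4 ± 4.48, 24.3 ± 1.16 and 24.7 ± 0.629. With chromosome medians removed, the EpiLC and Sirt1KO changes of Gab1 were 0.33 and 0.44, and those of Grb2 went from -0.93 and -0.91 to -0.46 and -0.42. In Sirt1KO Otx2KD against Sirt1KO the directions were the opposite: Ptpn11 and Gab1 fell and Grb2 and Sos1 rose. The ESC media held a MEK inhibitor, which acts downstream of this branch.

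**Figure D5:**
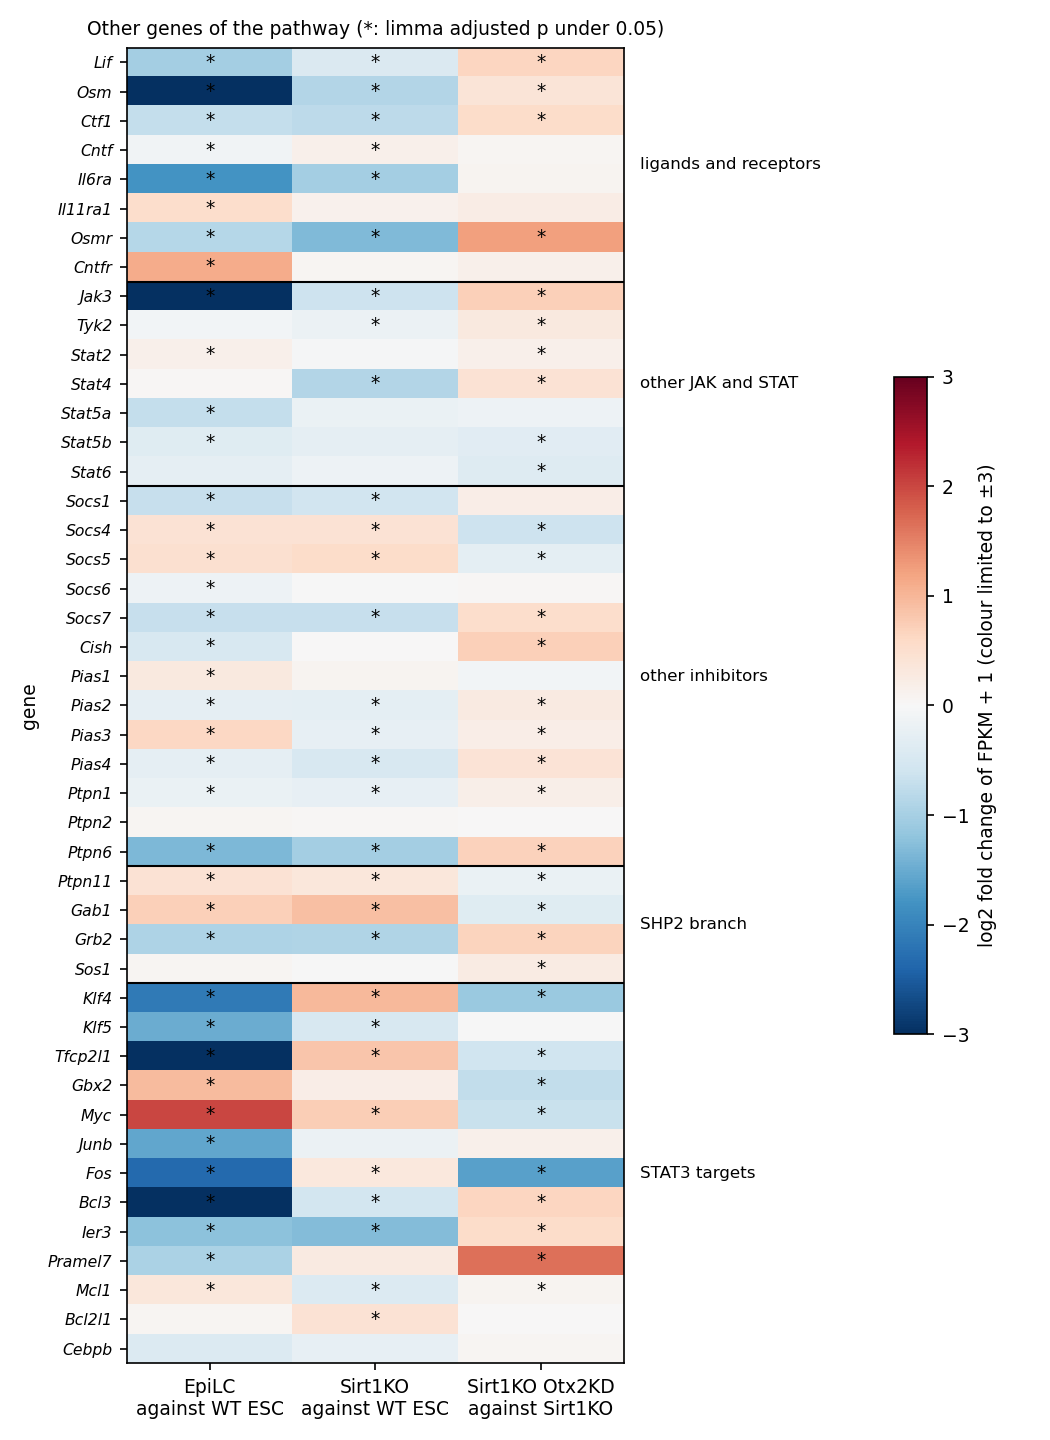
Log2 fold change of FPKM + 1 (colour, limited to 3 in either direction) for tested genes of 5 lists (rows) in 3 comparisons (columns); stars mark limma's adjusted p under 0.05. Among STAT3 targets most cells in the EpiLC column are blue, and the Sirt1KO column is mixed.

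Of 14 known targets of STAT3, 3 were called higher and 9 lower in EpiLC, beside 35.8% and 38.8% of all tested loci, with a median log2 change of -1.37. In Sirt1KO 5 were higher and 5 lower (median 0.00), and in Sirt1KO Otx2KD against Sirt1KO again 5 and 5 (median 0.04). These shares were near those of all tested loci, 32.4% and 32.7% in Sirt1KO and 31.1% and 31.5% with Otx2 knocked down. Tfcp2l1, a transcription factor that acts below STAT3 in naive cells, went from 84.1 ± 2.58 FPKM in wild-type ESC to 7.91 ± 0.298 in EpiLC and 150.3 ± 16.2 in Sirt1KO, and was at 98.9 ± 4.52 in Sirt1KO Otx2KD. Its log2 changes were -3.25 ± 0.06 in EpiLC (limma adjusted p = 6.86e-14) and 0.83 ± 0.06 in Sirt1KO (adjusted p = 7.70e-08).

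Bcl3, a cofactor of NF-kappaB, fell from 23.3 ± 2.49 FPKM to 1.61 ± 0.256 in EpiLC and 15.5 ± 0.719 in Sirt1KO. Klf5, a Krüppel-like factor of naive cells, fell from 44.4 ± 1.16 FPKM to 15.0 ± 0.572 and 31.8 ± 0.0820. Klf4, Fos and Myc were picked after their values were seen. Klf4 stood at 54.4 ± 1.94 FPKM in wild-type ESC, 11.9 ± 1.24 in EpiLC, 108 ± 5.51 in Sirt1KO and 49.1 ± 1.33 in the Otx2KD cells. Its order over wild-type ESC, EpiLC and Sirt1KO was that of Tfcp2l1 and Stat3, and not that of Bcl3 and Klf5. In the Otx2KD cells Tfcp2l1 and Stat3 were called higher than in wild-type ESC, whereas Klf4 was not called (-0.14, limma adjusted p = 0.0670). Fos, also a target of ERK signalling, was at 36.9 ± 1.90, 6.53 ± 1.12, 46.5 ± 3.46 and 14.4 ± 1.42 FPKM, in the order of groups given for Klf4. Myc went the other way in EpiLC, from 1.38 ± 0.399 to 8.50 ± 1.07 FPKM.

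For each of the 9 genes, the loci with the most similar levels over the 12 libraries were found by Pearson's r of log2(FPKM + 1) among 8347 candidates. The libraries fall into 4 groups, so r describes mainly the spacing of the group levels, which a single outlying group can dominate. It carries no test. Stat3 was nearest to Wfdc2, a secreted protease-inhibitor family protein (r = 0.996), which stood at 197, 40.9, 261 and 253 FPKM in wild-type ESC, EpiLC, Sirt1KO and Sirt1KO Otx2KD, and to B4galnt4 (0.996). Socs3 was nearest to Fam25c (0.993) and the asparagine synthetase gene Asns (0.993), which had 429, 232, 382 and 345 FPKM. Pim1 was nearest to Mvp, the major vault protein (0.994), and Rusc2 (0.993). Lifr was nearest to Dtl, a ubiquitin ligase subunit (0.990), and the kinase gene Eef2k (0.988), and Il6st to Nmt1, an N-myristoyltransferase (0.991), and Pdia6 (0.989).

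The remaining genes had less close neighbours. Jak1 was nearest to Mbtps1, a protease of the Golgi (0.971), and Numa1 (0.962). For Pim3 the nearest were Fbxo25 (0.971) and Mtss1l (0.964). Jak2 paired with Ankib1 (0.958) and Eif2ak4, the kinase GCN2 (0.946). Socs2 paired with Vim, which encodes the intermediate filament protein vimentin (0.954), and Rab34 (0.944). Vim was at 171 FPKM in wild-type ESC, 136 in EpiLC, 97.8 in Sirt1KO and 68.6 in the Otx2KD cells.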

How the data were processed

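Sample titles gave the 4 groups of 3 libraries. Per the submitters' processing notes, the authors used TopHat, Cufflinks and Cuffdiff with mm9 (versions not given) and deposited FPKM for each locus. Their scaling for library size is not given in the sources used here. Of 27914 loci, 4778 without a name were left out. The tests took 12320 named loci, those at 1 FPKM or more in 3 or more libraries, as log2(FPKM + 1), in 1 limma 3.58.1 model (R 4.3.3, trend and robust, 8 residual degrees of freedom) with 5 comparisons and an adjusted p under 0.05. The model was also run on simulated independent normal values with planted changes. Those values held no shift of a whole chromosome and no shared replicate effect, so the run does not cover either. Alternatives were a pseudocount of 0.1, no filter, quantile and median-of-ratios scaling, chromosome medians removed, the replicate number as a block, unnamed loci tested, only the compared groups fitted, and each library left out.

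Named genes were the 9 members, every tested ligand and receptor, up to 4 genes of each other list with the largest t in EpiLC or Sirt1KO against wild-type ESC, and 2 nearest genes per member (FPKM of at least 5 in a group). Of these, 3 genes of the lists are counted but not reported here. The members and lists were chosen with earlier results of these data known.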

Additional observations from a re-analysis of the deposited data

How the results depend on the processing

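Of 518 alternative values of the called changes of the 9 genes, 488 kept direction and call, 29 lost the call and 1 reversed: Socs3 in Sirt1KO against wild-type ESC, 0.20 with chromosome medians removed. There the counts were 4 higher in place of 3, and 3 lower in place of 5. Of 1484 alternatives for called changes of other pathway genes, 1421 kept both, 61 lost the call and 2 reversed with chromosome medians removed: Lif in Sirt1KO (0.06) and Stat5b in EpiLC (0.11), both on chromosome 11 and then not called. Changes that were not called crossed 0 in these cases: Socs2 in EpiLC (0.04 with quantile normalization), Jak1 in Sirt1KO (0.00, 0.01 and 0.00 with a pseudocount of 0.1, quantile normalization and chromosome medians removed), Pim3 in Sirt1KO Otx2KD against Sirt1KO (0.00 to 0.01) and Jak2 in EpiLC against Sirt1KO (0.00, -0.06 and -0.01). The cause was not tested.

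Leaving out 1 library at a time, the counts of higher genes ranged from 2 to 2, 3 to 3, 4 to 4, 5 to 5 and 2 to 2, and of lower genes from 4 to 6, 4 to 5, 2 to 3, 3 to 3 and 4 to 5, in the order EpiLC and Sirt1KO against wild-type ESC, Sirt1KO Otx2KD against Sirt1KO and wild-type ESC, and EpiLC against Sirt1KO. Uncalled changes that crossed 0 ranged from -0.07 to 0.00 for Socs2 in EpiLC, -0.04 to 0.05 for Jak1 in Sirt1KO, -0.04 to 0.02 for Stat3 and -0.05 to 0.02 for Pim3 in Sirt1KO Otx2KD against Sirt1KO, -0.05 to 0.01 for Lifr in Sirt1KO Otx2KD against wild-type ESC, and -0.08 to 0.05 for Jak2 in EpiLC against Sirt1KO.

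Same-numbered libraries deviated together with correlations of -0.11 to 0.17. These values do not show that the numbers pair the samples, and 3 libraries per group are too few to exclude a pairing. With the replicate block, among the 9 genes only Il6st in EpiLC against Sirt1KO lost its call (-0.14, adjusted p = 0.0535). Depth in fragments is unknown, which limits Jak2 and other genes near 1 FPKM most.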
